A study of Homo sapiens with 4 samples.

Results

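The 39 promoters described here belong to the HOX genes, which encode the homeodomain transcription factors of the HOXA, HOXB, HOXC and HOXD clusters. They were taken as every deposited promoter whose gene symbol was HOX followed by a cluster letter (A, B, C or D) and a paralogue number, and they were 39 of 20242 promoters in all. Chromatin immunoprecipitation sequencing (ChIP-seq) of histone H3 trimethylated on lysine 27 (H3K27me3) and on lysine 4 (H3K4me3) was performed in JMJD3c-hESCs. This is a stable line derived from the human embryonic stem cell (hESC) line SEES-3, in which doxycycline (Dox) acts through a Tet-On system to switch on JMJD3c, the catalytic part of the H3K27 demethylase JMJD3. Cells left without Dox (−Dox) were compared with cells given Dox at 1 µg/ml (+Dox), both from feeder-free culture in StemFit AK-03 medium and both collected on day 3. Both groups carry the transgene and the Tet transactivator, so the groups differ in Dox as well as in JMJD3c. Stable clones were selected to make the line, and the sources used here do not state whether these libraries came from 1 clone. The labels give 1 library for each mark and condition, 4 libraries in all, so no difference described here has a replicate check and no test was made.

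HOX genes lie side by side in each cluster in an order that follows the body axis along which they are used. Low paralogue numbers act in the hindbrain and pharyngeal region, middle numbers in the neck and trunk, and high numbers in the lumbar and tail region, the limbs and the genital tract. In embryonic stem cells the clusters are silent and are a textbook target of the Polycomb group complexes, one of which places H3K27me3, while MLL-family enzymes place H3K4me3 at promoters that are active or poised. A promoter that holds both marks is called bivalent.

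Values are deposited signal, that is, read coverage per library size, added up over the 3 kb on either side of the start, so every window has the same length. A promoter was called marked above a value of 20. Between 15.8 and 20.6 reads, depending on the library, gave such a value. The median HOX promoter rested on about 152 and 174 reads for H3K27me3 (−Dox and +Dox) but on about 13.2 and 7.12 reads for H3K4me3, so the H3K4me3 ratio of 1 gene is imprecise. Ratios are +Dox over −Dox, and their 95% intervals (Clopper-Pearson, on these approximate reads) cover counting error only and set 1 library against another. Since coverage is expressed per read of its own library, a genome-wide loss would be invisible, and a ratio above 1 does not show that the amount of the mark rose. The paper's immunoblots showed H3K27me3 in this line well below its starting level by day 3 of Dox. The ratios given here cannot show such a loss. The 2 +Dox files, 1 for each mark, are multiples of the same step, as if both libraries held the same number of reads. The sources used here do not say whether 1 total served for both, which would move all ratios of a mark by the same factor, and differences in log2 ratio between HOX and other promoters do not depend on that factor.

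Deposited transcripts were matched to GENCODE for 37 of the 39 promoters on GRCh37, the assembly of hg19, and HOXA13 is among those given without a position. Matched starts included HOXB1 (chr17, position 46608373, minus strand) and HOXB9 (46703720), and in the other clusters they ran from HOXA2 (chr7, position 27142302, minus strand) to HOXA11 (27224842), from HOXC13 (chr12, position 54332615, plus strand) to HOXC5 (54426834) and from HOXD13 (chr2, position 176957449, plus strand) to HOXD1 (177053396). Neighbouring windows shared reads in 7 pairs (HOXA3 with HOXA5, HOXA10 with HOXA11, HOXB3 with HOXB5, HOXC6 with both HOXC9 and HOXC10, and HOXD11 with both HOXD10 and HOXD12). For 11 genes the deposited start lay more than 1000 bp from the start of the canonical transcript, from 2829 bp for HOXA6 to 37816 bp for HOXC6, so these windows may describe an alternative promoter of the gene. The others were HOXA3, HOXA9, HOXA10, HOXB7, HOXC4, HOXC9, HOXD3, HOXD10 and HOXD11, with HOXC4 at 36904 bp. Along the chromosome the deposited starts did not all follow paralogue order. HOXA3 lay between HOXA4 and HOXA5, HOXB3 between HOXB4 and HOXB5, and HOXB7 beyond HOXB9. HOXC6 lay between HOXC10 and HOXC9, HOXC4 between HOXC8 and HOXC5, and HOXD3 between HOXD8 and HOXD4. Anterior, middle and posterior refer below to paralogue number and not to the place of the window.

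The promoter sequences of 3 genes are shown from 250 bases before to 50 bases after the deposited start, read 5′ to 3′ on the gene's strand from GRCh37, with each CpG dinucleotide in capitals. CpG content is shown because unmethylated CpG-rich DNA is known to recruit both the Polycomb and the MLL enzymes. HOXA7 (chr7:27196245-27196544, minus strand, 31 CpGs) held the highest H3K27me3 of the family. HOXD1 (chr2:177053146-177053445, plus strand, 36 CpGs) was bivalent in both conditions, and HOXB1 (chr17:46608324-46608623, minus strand, 11 CpGs) was above the threshold for neither mark.
HOXA7: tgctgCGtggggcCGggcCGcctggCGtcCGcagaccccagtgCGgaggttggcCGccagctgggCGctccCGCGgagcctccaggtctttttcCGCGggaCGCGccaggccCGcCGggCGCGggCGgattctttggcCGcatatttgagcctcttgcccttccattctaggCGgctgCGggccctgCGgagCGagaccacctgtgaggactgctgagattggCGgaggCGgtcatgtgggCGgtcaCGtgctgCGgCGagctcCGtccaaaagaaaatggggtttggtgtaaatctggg
HOXD1: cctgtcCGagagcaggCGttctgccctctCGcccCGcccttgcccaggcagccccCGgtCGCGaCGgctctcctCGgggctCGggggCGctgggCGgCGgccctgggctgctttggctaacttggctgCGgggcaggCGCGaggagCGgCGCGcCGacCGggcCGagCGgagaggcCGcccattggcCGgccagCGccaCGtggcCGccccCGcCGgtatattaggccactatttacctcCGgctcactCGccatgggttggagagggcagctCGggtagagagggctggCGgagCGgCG
HOXB1: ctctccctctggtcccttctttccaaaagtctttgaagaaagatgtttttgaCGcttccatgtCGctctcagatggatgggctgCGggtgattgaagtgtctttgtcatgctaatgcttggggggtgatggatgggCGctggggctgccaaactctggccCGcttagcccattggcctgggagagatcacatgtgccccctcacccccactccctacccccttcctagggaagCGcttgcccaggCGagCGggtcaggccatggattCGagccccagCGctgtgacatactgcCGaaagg

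HOXA7 and HOXD1 held similar numbers of CpGs in this short stretch, 31 and 36, while their H3K27me3 in −Dox was 250 and 141. Over the whole family the 300 bases held between 4 and 36 CpGs with a median of 15, against 21 for all matched promoters and 29 for the other bivalent promoters. Over the full 6001-bp window the HOX median was 234 CpGs, above the 156 of all promoters and the 219 of the other bivalent promoters, and below the 294 of other promoters with a mean H3K27me3 of at least 100. CpG number in the window and −Dox H3K27me3 had a Spearman correlation of 0.23 over the 37 matched HOX promoters and of 0.09 over 34 without HOXB1, HOXB2 and HOXB13, points that share the same library. The letters TATAAA, searched on both strands, were found in 6 of 37 HOX stretches (16.2%) and in 9.97% of all 18239 stretches of the same length. The letters TGATTNAT, a PBX-HOX type of site, were found at HOXA2 and HOXB9 (5.41%), against 2.19% of all stretches.

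In −Dox cells the HOX promoters combined some of the highest H3K27me3 values in the library with low H3K4me3. H3K27me3 exceeded 20 at 38 of 39, against 11% of all promoters, and H3K4me3 exceeded 20 at 9 of 39, against 63.7%. The median HOX value was 193 for H3K27me3 and 12.8 for H3K4me3, whereas the median over all promoters was 6.09 and 41.3. HOX promoters took 13 of the first 50, 24 of the first 100 and 35 of the first 200 places in H3K27me3, and none of the first 500 in H3K4me3. They made up 0.193% of the promoters and carried 2.86% of the H3K27me3 signal but 0.0668% of the H3K4me3 signal.

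**Figure D1:**
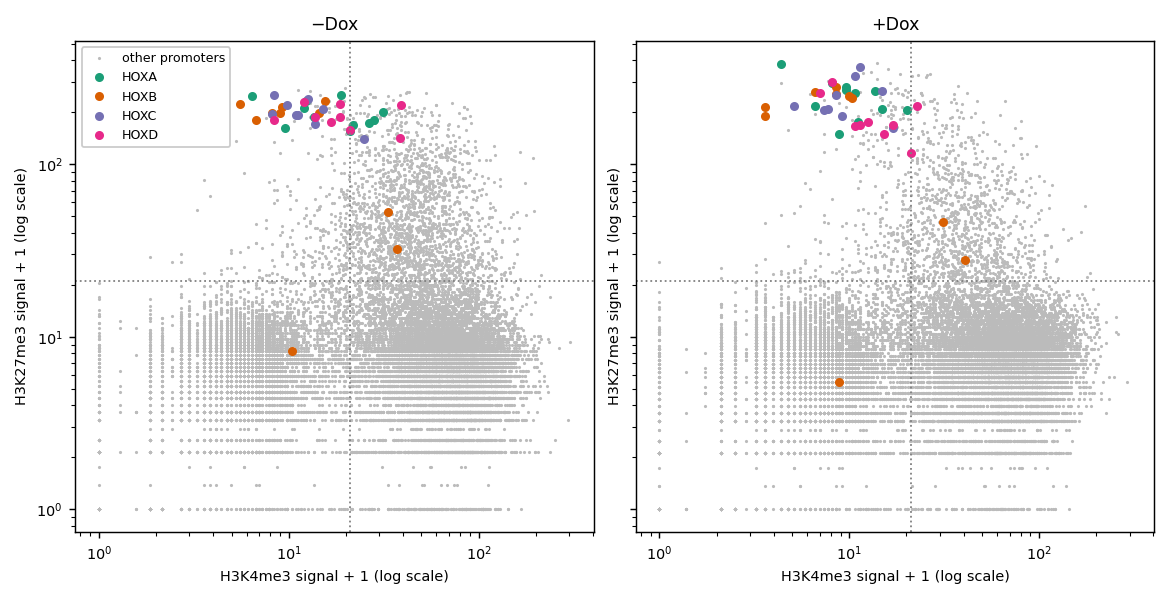
H3K27me3 against H3K4me3 signal (deposited value plus 1, both axes on a log scale) at all promoters in −Dox (left) and +Dox (right). Grey points are other promoters, coloured points are HOX promoters by cluster, and dotted lines mark a value of 20. In −Dox, 36 HOX promoters lie at an H3K27me3 of at least 100, most of them left of the H3K4me3 line, while HOXB1, HOXB2 and HOXB13 lie lower.

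Low H3K4me3 set HOX promoters apart from most other strongly H3K27me3-marked promoters. Of the 380 promoters with a −Dox H3K27me3 of at least 100, 36 were HOX, and H3K4me3 was at most 20 at 29 of these 36 (80.6%) but at 47 of the other 344 (13.7%). By class, 29 HOX promoters were H3K27me3-only (1.58% of all promoters), 9 were bivalent (9.42%) and 1, HOXB1, was unmarked (34.8%). HOX genes thus supplied 29 of the 319 H3K27me3-only promoters (9.09%). The classes depend on the threshold, since 26 HOX promoters were bivalent at a threshold of 10 and 5 at a threshold of 30.

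After Dox most HOX promoters were again among the highest in H3K27me3, in a changed order. H3K27me3 exceeded 20 at the same number of promoters, 38 of 39 (6.73% of all promoters in +Dox), and HOX took 14 of the first 50, 25 of the first 100 and 35 of the first 200 places. The median HOX value was 217 for H3K27me3 and 8.95 for H3K4me3, and the family's part of the signal was 3.91% and 0.0477%. The promoters with H3K27me3 of at least 100 numbered 261 in +Dox, 36 of them HOX. HOXA7 moved from rank 10 to rank 2 and HOXA9 from rank 100 to rank 21, while HOXD11 moved from rank 33 to rank 124. The −Dox and +Dox values had a Spearman correlation of 0.71 over the 39 promoters.

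The median log2 ratio of H3K27me3 over the 39 HOX promoters was 0.18 (95% interval of the median over promoters −0.00 to 0.35), against −0.15 over all promoters and −0.82 over the 1898 other bivalent promoters. H3K27me3 was higher in +Dox at 26 of 39 as deposited (43.4% of all promoters). Scaling both libraries to the same total adds 0.23 to every log2 ratio, so the share of all promoters rises too. The HOX count was then 35 of 39, to which the 43.4% does not apply. As deposited, the interval of the ratio lay above 1 at 14 HOX promoters (1.59% of all) and below 1 at 2 (7.06%). Under same-total scaling it lay above 1 at 21 (3.2% of all) and below 1 at 0 (4.44%). The 14 were HOXA6, HOXA7, HOXA9, HOXA11, HOXA13, HOXB4, HOXB5, HOXB8, HOXC5, HOXC8, HOXC9, HOXC12, HOXD4 and HOXD9, and all 14 lay above 1 under each of the 3 scalings. The 2 below 1 were HOXB13 and HOXD11, and under same-total scaling neither lay below 1.

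Large decreases of the H3K27me3 ratio were few, which does not describe the amount of the mark. The H3K27me3 ratio was below 0.66 at HOXB1 and HOXB13 only, 2 of 39, against 33.6% of all promoters, 61.6% of the other bivalent promoters and 9.16% of the 262 other promoters with a mean H3K27me3 of at least 100, a set cut on a mean that contains the +Dox value. It was below 0.5 at 0 of 39 HOX promoters and at 21.5% of all, and above 1.5 at HOXA7 and HOXA9, 2 of 39, against 24.4% of all, most of which hold few reads. When the reads of the 32 HOX promoters with non-overlapping windows were pooled, the ratio was 1.17 (1.12 to 1.21), compared with 0.709 (0.702 to 0.716) for the other bivalent promoters and 1.02 (1.00 to 1.03) for the other promoters of mean at least 100.

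How HOX promoters compared with other strongly marked promoters depended on how the others were chosen, and the part of level in the HOX values was not tested. Among promoters with a −Dox H3K27me3 of at least 100, the median log2 ratio was 0.20 over the 36 HOX promoters and −0.19 over the 344 others. The interval lay above 1 at 14 and below 1 at 1 of these 36, and above 1 at 10.8% and below 1 at 32.6% of the others. Chosen instead on a mean of at least 150, which contains the +Dox value, the median log2 ratio was 0.20 (0.02 to 0.39) over 34 HOX promoters and 0.18 (0.12 to 0.24) over 131 others, with intervals that overlapped. In this second choice the H3K4me3 ratio had a median log2 of −0.60 (−0.80 to −0.28) at HOX and −0.58 (−0.68 to −0.44) at the others. The H3K4me3 level differed, at a median of 12.1 in −Dox and 8.58 in +Dox for HOX and 32.8 and 20.5 for the others. Within the family the mean H3K27me3 and the ratio had a Spearman correlation of 0.62 (39 promoters), but both contain the +Dox value, and the correlation of the −Dox value with the ratio, which also share a value, was 0.22 and 0.15 without HOXB1, HOXB2 and HOXB13.

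**Figure D2:**
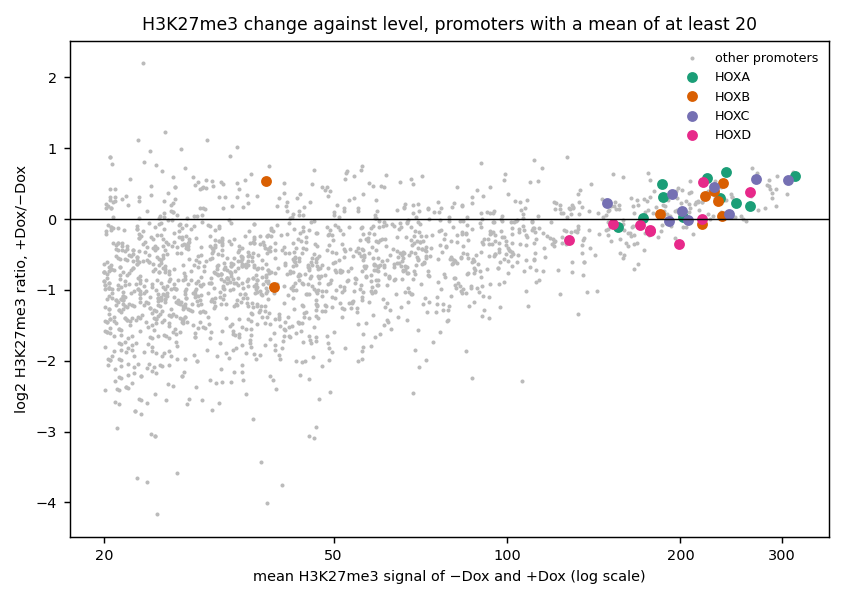
Log2 +Dox/−Dox ratio of H3K27me3 against the mean of both values (log axis) for promoters with a mean of at least 20. Grey points are other promoters and coloured points HOX promoters by cluster. Most HOX promoters lie at the right end, where grey points also spread around 0, while the bulk of grey points at lower means lies below 0.

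H3K4me3 was lower in +Dox at 33 of 39 HOX promoters (52.6% of all promoters and 80.5% of the other promoters of mean H3K27me3 at least 100), and this count was the same under the 3 scalings. The median log2 ratio was −0.58 (−0.69 to −0.26), against −0.03 over all promoters and −0.40 over the other promoters of mean at least 100. The ratio was below 0.66 at 18 of 39 (11.7% of all, 38.5% of the other promoters of mean at least 100). It was below 0.5 at 7 (5.33% and 13.4%). Few single ratios were resolved. The interval lay below 1 at 5 of 39, namely HOXA4, HOXA6, HOXA7, HOXA13 and HOXD1, and above 1 at 0. Below 1 lay 3.06% of all promoters and 20.2% of the other promoters of mean at least 100, and above 1 lay 1.73% and 1.53%. The pooled ratio of the 32 non-overlapping promoters was 0.706 (0.608 to 0.819). Gene by gene, the ratios of the marks had a Spearman correlation of −0.08 over 39 promoters, and −0.02 over 36 without HOXB1, HOXB2 and HOXB13.

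**Figure D3:**
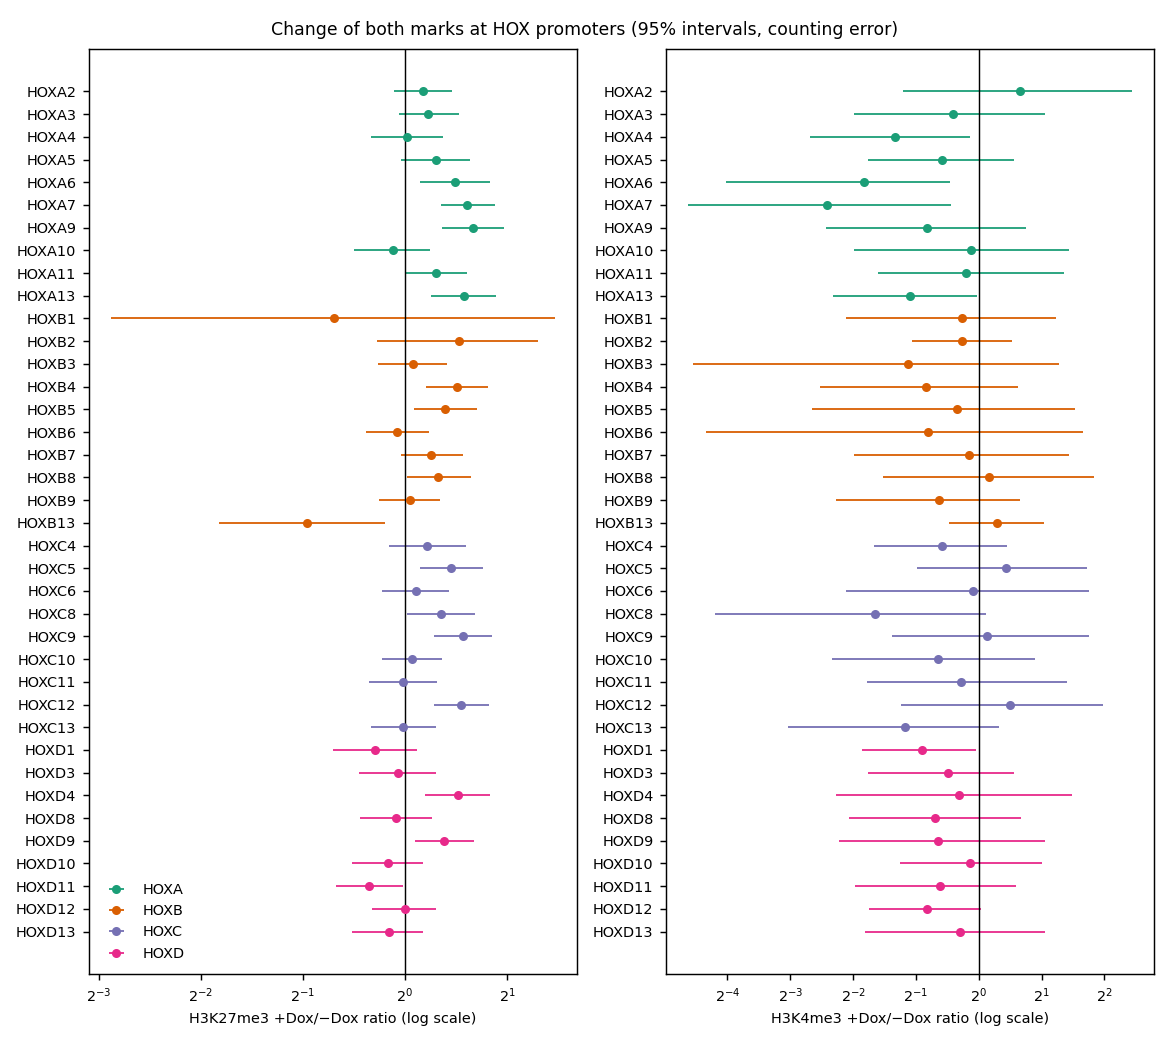
+Dox/−Dox ratio of H3K27me3 (left) and H3K4me3 (right) for the HOX promoters described by name, on log axes that differ in range. Points are ratios, bars are 95% intervals of counting error, colours are clusters and the vertical line marks 1. H3K27me3 bars lie right of 1 in 5 HOXA, 3 HOXB, 4 HOXC and 2 HOXD genes, and H3K4me3 bars are several times wider.

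The HOXA cluster (11 promoters) had the highest H3K27me3 in +Dox, with a median of 186 in −Dox and 259 in +Dox, and its H3K4me3 median was 18.0 and 8.58. The median log2 ratio was 0.30 for H3K27me3, with 10 of 11 higher in +Dox, and −0.67 for H3K4me3, with 10 of 11 lower. Toward its anterior end HOXA2, which sets the identity of the second pharyngeal arch, had H3K27me3 of 248 in −Dox and 280 in +Dox and H3K4me3 of 5.41 and 8.58, the only HOXA promoter higher in H3K4me3 (ratio 1.58, 0.434 to 5.43). HOXA3, needed for thymus and parathyroid, had H3K27me3 of 230 and 269 and H3K4me3 of 11.4 and 8.58. The H3K27me3 intervals of both genes contained 1.

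The middle of the HOXA cluster held the 2 lowest H3K4me3 ratios of the family, at HOXA7 and HOXA6, beside H3K27me3 ratios above 1. HOXA4, a gene of the neck region, had H3K27me3 of 172 in −Dox and 173 in +Dox, while its H3K4me3 went from 25.4 to 10.1 (ratio 0.397, 0.156 to 0.905). HOXA5, required for lung development, had H3K27me3 of 167 and 207 and H3K4me3 of 20.8 and 13.8. HOXA6 went from 154 to 217 in H3K27me3 (ratio 1.41, 1.11 to 1.78) and from 19.9 to 5.59 in H3K4me3 (0.280, 0.0614 to 0.730). HOXA7, a trunk gene, showed the highest H3K27me3 value of any HOX promoter, 250 in −Dox and 382 in +Dox (1.53, 1.27 to 1.84), together with the lowest H3K4me3 ratio, from 18.0 to 3.36 (0.187, 0.0406 to 0.738). HOXA9, a gene of blood progenitors and leukaemia, had the highest H3K27me3 ratio of the family, from 186 to 293 (1.58, 1.28 to 1.96), and H3K4me3 of 12.5 and 7.08. Pooled over HOXA4, HOXA6, HOXA7 and HOXA9, whose windows do not overlap and which were grouped after their values were seen, the ratio was 1.399 (1.26 to 1.56) for H3K27me3 and 0.344 (0.204 to 0.569) for H3K4me3.

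At the posterior end the HOXA genes differed from one another. HOXA10, which acts in the uterus, was the only HOXA promoter with a lower H3K27me3 value in +Dox as deposited, 162 and 149 (0.921, 0.707 to 1.18), and its H3K4me3 was 8.55 and 7.83. Its neighbour HOXA11, a gene of forearm and uterus whose window overlaps that of HOXA10, went from 210 to 259 (1.23, 1.00 to 1.52) with H3K4me3 of 11.1 and 9.69. HOXA13, a gene of the digits and the genital tract, went from 178 to 266 in H3K27me3 (1.49, 1.20 to 1.85) and from 27.1 to 12.7 in H3K4me3 (0.468, 0.200 to 0.979, an interval that reached 1 under same-total scaling). HOXA4, HOXA5 and HOXA13 were bivalent in −Dox and H3K27me3-only in +Dox, and no HOXA promoter was bivalent after Dox.

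**Figure D4:**
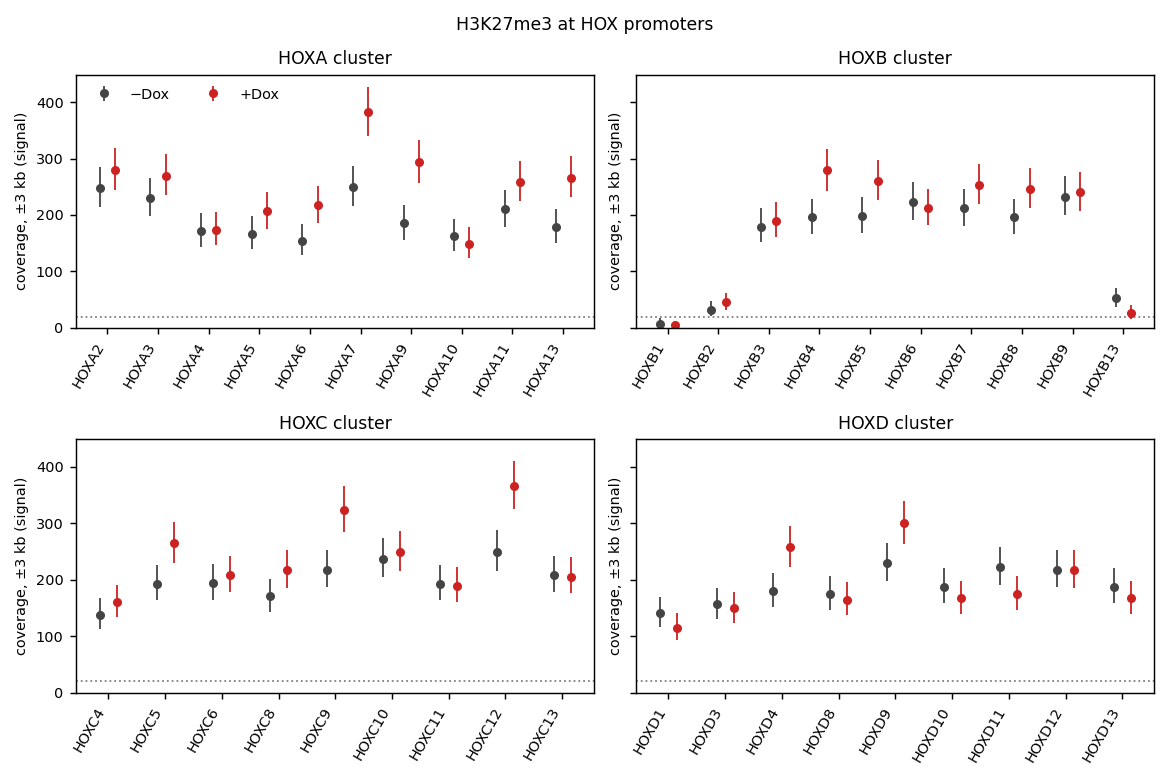
H3K27me3 signal (coverage over 3 kb on each side of the start) of the HOX promoters described by name in −Dox (grey) and +Dox (red), by cluster and in paralogue order. Points are single libraries, bars are 95% Poisson intervals of the approximate reads and the dotted line marks 20. All promoters but HOXB1, HOXB2 and HOXB13 lie above 100, and the bars of the 2 conditions do not overlap at HOXA7, HOXA9, HOXC9 and HOXC12, among others.

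The HOXB cluster (10 promoters) held the 3 promoters of the family with low H3K27me3, all near its ends, and a uniform block between them. HOXB1, a hindbrain gene at the anterior end, had H3K27me3 of 7.23 in −Dox and 4.47 in +Dox (ratio 0.619, 0.136 to 2.77) and H3K4me3 of 9.40 and 7.83. It stayed below 20 for both marks, and its H3K27me3 was near the median of all promoters. HOXB2, also a hindbrain gene, had H3K27me3 of 31.2 and 45.1 (1.45, 0.828 to 2.46) and H3K4me3 of 36.2 and 30.2. HOXB13, a prostate gene set apart from the rest of the cluster, went from 52.1 to 26.8 in H3K27me3 (0.515, 0.283 to 0.873) with H3K4me3 of 32.2 and 39.5 (1.23, 0.719 to 2.05). HOXB2 and HOXB13 were bivalent in both conditions, and the interval of HOXB13 reached 1 under same-total scaling.

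From HOXB3 to HOXB9 the −Dox values of H3K27me3 lay between 180 and 232 and H3K4me3 stayed below 20 in both conditions. HOXB3 had H3K27me3 of 180 in −Dox and 189 in +Dox and the lowest H3K4me3 ratio of the cluster, 5.70 and 2.61 (0.458, 0.0425 to 2.41). HOXB4, known for expanding blood stem cells, went from 196 to 279 in H3K27me3 (1.42, 1.16 to 1.76), with H3K4me3 of 13.4 and 7.46. HOXB5, a gene of the enteric nervous system, went from 198 to 260 (1.31, 1.06 to 1.63), with H3K4me3 of 7.12 and 5.59. At HOXB6 and HOXB7, both trunk genes, the intervals contained 1. HOXB6 had H3K27me3 of 224 and 213 and H3K4me3 of 4.56 and 2.61, the lowest −Dox H3K4me3 of the family. HOXB7 had 212 and 254 in H3K27me3 and 8.26 and 7.46 in H3K4me3, and HOXB8, a gene of the myeloid and microglial lineage, went from 196 to 246 (1.25, 1.01 to 1.56) with 7.98 and 8.95 in H3K4me3. HOXB9, a thoracic gene, had 232 and 240 in H3K27me3 and 14.5 and 9.32 in H3K4me3. Over the cluster the median log2 ratio was 0.17 for H3K27me3, with 7 of 10 higher in +Dox, and −0.31 for H3K4me3.

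The HOXC cluster (9 promoters, with no paralogue below 4) was H3K27me3-only at 8 of 9 in −Dox and at 9 of 9 in +Dox. Its median H3K27me3 was 194 and 217 and its median H3K4me3 10.3 and 8.20, with median log2 ratios of 0.22 and −0.28. HOXC4 was the bivalent one, with H3K27me3 of 138 in −Dox and 161 in +Dox and H3K4me3 of 23.9 and 16.0. HOXC5 went from 193 to 264 in H3K27me3 (1.37, 1.11 to 1.70) with H3K4me3 of 10.3 and 13.8, and HOXC6 had 194 and 208 with 7.12 and 6.71. HOXC8 went from 170 to 217 (1.27, 1.01 to 1.61), and its H3K4me3 ratio was the lowest of the cluster, 12.8 and 4.10 (0.320, 0.0545 to 1.09). HOXC9, a thoracic gene, went from 218 to 324 (1.49, 1.22 to 1.81) with H3K4me3 of 8.83 and 9.69.

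Posterior HOXC genes split by gene rather than by position. HOXC10, a lumbar gene, had H3K27me3 of 237 in −Dox and 249 in +Dox and H3K4me3 of 11.7 and 7.46. HOXC11 had 193 and 190 (0.984, 0.781 to 1.24), the lowest H3K27me3 ratio of the cluster, with H3K4me3 of 9.97 and 8.20. HOXC12 went from 250 to 366 (1.47, 1.22 to 1.76), with H3K4me3 of 7.41 and 10.4 (1.41, 0.423 to 3.95). HOXC12 was thus the second highest HOX promoter in both conditions although its neighbours on either side barely differed between conditions. HOXC13, a gene of hair and nail, had H3K27me3 of 208 and 205 and H3K4me3 of 14.2 and 6.34.

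The HOXD cluster (9 promoters) was the only one with a lower median H3K27me3 in +Dox as deposited, 187 in −Dox and 167 in +Dox. Its median log2 ratio was −0.09, and −0.06 when scaled on low promoters, but 0.15 under same-total scaling, and 2 of 9 were higher in +Dox as deposited. H3K4me3 was lower at 9 of 9, with medians of 17.7 and 11.6 and a median log2 ratio of −0.61. HOXD1, the most CpG-rich of the sequences shown, had H3K27me3 of 141 and 115 and H3K4me3 of 37.6 and 20.1 (0.535, 0.277 to 0.971). HOXD3 had H3K27me3 of 156 and 149 and H3K4me3 of 19.9 and 14.2. HOXD4, a hindbrain and neck gene, was an exception and went from 180 to 258 in H3K27me3 (1.44, 1.15 to 1.78), with H3K4me3 of 7.41 and 5.97.

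Toward the posterior end of HOXD, genes that pattern the limb and the genital bud followed one another without an increase as deposited, except at HOXD9. Under same-total scaling only HOXD11 among them was lower in +Dox. HOXD8 had H3K27me3 of 175 in −Dox and 165 in +Dox and H3K4me3 of 15.7 and 9.69. HOXD9 went from 229 to 300 (1.31, 1.07 to 1.59) with H3K4me3 of 11.1 and 7.08. HOXD10, a lumbar motor neuron gene, had 187 and 167 with H3K4me3 of 17.7 and 16.0 (0.907, 0.420 to 2.02). HOXD11, a forearm gene, had the lowest H3K27me3 ratio of the cluster, 222 and 174 (0.784, 0.626 to 0.989), with H3K4me3 of 17.7 and 11.6, and this interval lay below 1 only as deposited. HOXD12 had 218 and 217 with H3K4me3 of 38.2 and 21.6 (0.566, 0.299 to 1.02), the highest −Dox H3K4me3 of the family. HOXD13, the digit gene mutated in synpolydactyly, had 187 and 167 with H3K4me3 of 12.8 and 10.4. HOXD1 and HOXD12 were bivalent in both conditions, HOXD1 by a +Dox H3K4me3 value just above 20.

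**Figure D5:**
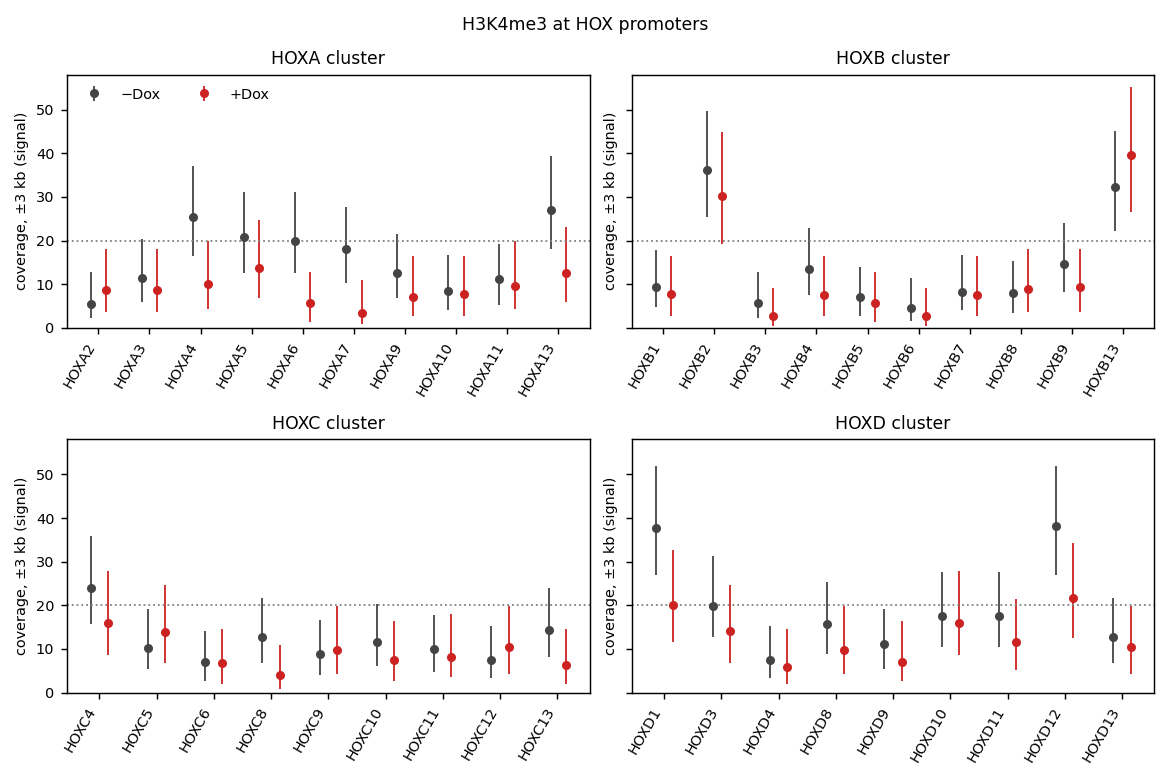
H3K4me3 signal of the HOX promoters described by name in −Dox (grey) and +Dox (red), by cluster and in paralogue order, with 95% Poisson intervals and a dotted line at 20. The axis ends far below that of the H3K27me3 plot. The 4 promoters above 20 in +Dox are HOXB2, HOXB13, HOXD1 and HOXD12, and most bars of the 2 conditions overlap.

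Pooled over non-overlapping windows, the H3K27me3 ratio was 1.26 (1.16 to 1.36) for 7 HOXA promoters, 1.13 (1.03 to 1.22) for 9 HOXB, 1.23 (1.14 to 1.32) for 8 HOXC and 1.04 (0.962 to 1.13) for 8 HOXD. The intervals of HOXA and HOXC did not overlap that of HOXD, while HOXB overlapped all of the others, and with 1 library per group no difference between clusters was tested. The same pools gave H3K4me3 ratios of 0.505 (0.346 to 0.738), 0.877 (0.664 to 1.15), 0.767 (0.553 to 1.07) and 0.655 (0.4998 to 0.861), whose intervals all overlapped. Promoters whose windows were not placed, such as HOXA13, are not in these pools.

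By paralogue number, the middle range (4 to 8) had the highest median H3K27me3 ratio, under both scalings given here. The median log2 ratio was 0.05 over paralogues 1 to 3 (8 promoters), 0.33 over paralogues 4 to 8 (15) and 0.02 over paralogues 9 to 13 (16), and these were 0.29, 0.56 and 0.26 under same-total scaling. As deposited, 5 of 8, 13 of 15 and 8 of 16 were higher in +Dox, and the interval lay above 1 at 0, 8 and 6. The pooled ratios were 1.06 (0.960 to 1.17), 1.25 (1.18 to 1.33) and 1.13 (1.07 to 1.20), with intervals of counting error only. That of paralogues 4 to 8 began where that of paralogues 1 to 3 ended, and it overlapped that of paralogues 9 to 13. The intervals of the median log2 ratio over promoters were −0.69 to 0.53, 0.11 to 0.49 and −0.16 to 0.55, and all overlapped. These differences between groups of paralogues were not tested.

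As deposited, single paralogue numbers differed within the posterior group. All 4 paralogue 9 promoters were higher in +Dox, with a median of 224 in −Dox and 297 in +Dox and an interval above 1 at 3 of 4, HOXB9 being the exception. All 4 promoters of paralogue 4 and all 3 of paralogue 5 were also higher, and of these HOXB4, HOXD4, HOXB5 and HOXC5 had intervals above 1. By contrast, as deposited 1 promoter was higher in each of paralogues 10 (HOXC10), 11 (HOXA11), 12 (HOXC12) and 13 (HOXA13). Of these, HOXA11, HOXC12 and HOXA13 had intervals above 1. The contrast depended on scaling, since under same-total scaling all promoters of paralogues 10 to 13 but HOXD11 and HOXB13 were higher. Pooled over HOXD10, HOXD12 and HOXD13, whose windows do not overlap and which were grouped after their values were seen, the ratio was 0.932 (0.816 to 1.06). Members of 1 paralogue number did not share a level, as HOXB13 at 52.1 and HOXC13 at 208 show for −Dox H3K27me3.

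H3K4me3 was lower in each paralogue range. The median log2 ratio was −0.45 over paralogues 1 to 3, −0.59 over paralogues 4 to 8 and −0.45 over paralogues 9 to 13, with pooled ratios of 0.733 (0.541 to 0.982), 0.567 (0.430 to 0.752) and 0.806 (0.639 to 1.01). The 6 promoters with a higher H3K4me3 value in +Dox were HOXA2, HOXB8, HOXB13, HOXC5, HOXC9 and HOXC12, and the interval of every one of them contained 1.

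Of the 9 bivalent HOX promoters, 5 were H3K27me3-only in +Dox (HOXA4, HOXA5, HOXA13 and HOXC4 among them) and 4 were still bivalent (HOXB2, HOXB13, HOXD1 and HOXD12), which were also the 4 HOX promoters with H3K4me3 above 20 in +Dox (62.7% of all promoters). None became H3K4me3-only, the class that 745 of the 1898 other bivalent promoters (39.3%) entered, and 133 of those (7.01%) became H3K27me3-only. Of the 262 others with a mean H3K27me3 of at least 100, 0 were H3K4me3-only in +Dox, and their lowest +Dox H3K27me3 was 36.2. This set was cut on a mean that contains the +Dox value, which nearly fixed that 0, so it cannot show a likeness to HOX. The H3K27me3-only promoters of this set numbered 43 in −Dox and 92 in +Dox, counts that the same cut affects. All 29 H3K27me3-only HOX promoters and the unmarked HOXB1 kept their class, so 34 HOX promoters were among the 336 H3K27me3-only promoters in +Dox (10.1%). The 9 bivalent HOX promoters had higher H3K27me3 than the other bivalent ones, with medians of 167 and 43.0 in −Dox.

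Genes next to the clusters were read from a fixed list of 14. EVX1, a homeobox gene beside HOXA13, went from 188 to 271 in H3K27me3 (1.44, 1.17 to 1.79), and EVX2, beside HOXD13, had 274 and 312 (1.14, 0.946 to 1.37), the former like HOXA13 and both with H3K4me3 below 20. Beyond the other ends, SKAP2 by the HOXA cluster went from 30.05 to 4.85 (0.161, 0.0414 to 0.478) and SKAP1 next to HOXB1 from 54.4 to 17.5 (0.322, 0.162 to 0.597). The remaining 10 had H3K27me3 values below 20 in both conditions. For SKAP2 the deposited start lay 130649 bp from the canonical one.

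Promoters of HOX cofactors and upstream regulators mostly had lower values of H3K27me3 in +Dox where they were marked, with CDX2 as an exception. Of 9 genes for the PBX, MEIS and PKNOX proteins, which bind DNA together with HOX proteins, 5 were above 20 in H3K27me3 in −Dox, and all 5 had intervals below 1 as deposited, against 7.06% of all promoters. All 5 were bivalent in −Dox, and among the other bivalent promoters of the whole table the share was 48.7%. MEIS1 went from 108 to 67.1 (0.619, 0.436 to 0.890), MEIS2 from 84.1 to 32.8 (0.390, 0.236 to 0.619) and PKNOX2 from 89.4 to 22.7 (0.254, 0.142 to 0.430), while the other 2 were MEIS3 and PBX4. Same-total scaling multiplies every H3K27me3 ratio by 1.18, and under it the intervals of MEIS1, MEIS3 and PBX4 reached 1. Of 10 caudal and retinoic acid genes, CDX2, a caudal factor that activates trunk HOX genes, went from 181 to 234 (1.29, 1.03 to 1.61) and was H3K27me3-only in both conditions, as most HOX promoters were. CYP26A1 and CYP26C1, which break down retinoic acid, went from 167 to 80.2 (0.481, 0.351 to 0.653) and from 153 to 92.5 (0.605, 0.445 to 0.811). RARG, a retinoic acid receptor gene, rested on too few reads for a ratio to be read (1.14 and 13.4).

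The markers of the cell type were as follows in these libraries. Of 10 pluripotency genes, 9 were above 20 in H3K4me3 in both conditions and none was above 20 in H3K27me3. The exception was POU5F1, at 5.41 and 3.73 in H3K4me3, whose deposited start lay 10049 bp from the canonical one. Of 7 mesoendoderm and 3 neuroectoderm genes, 6 and 3 were above 20 in H3K27me3 in both conditions, and the part of any change in cell makeup in the HOX values was not tested. The median H3K4me3 value went from 148 to 127 over the pluripotency genes, from 51.0 to 39.5 over the mesoendoderm genes and from 32.8 to 30.9 over the neuroectoderm genes. Gene by gene the mesoendoderm list went in both directions, with a median log2 H3K4me3 ratio of 0.04 and 4 of 7 higher in +Dox. As deposited, FOXA2, an endoderm factor, had an H3K4me3 interval above 1 (1.47, 1.01 to 2.21) and SOX17, another, 1 below it (0.191, 0.0441 to 0.489). Low-promoter scaling multiplies H3K4me3 ratios by 0.927, and under it the FOXA2 interval contained 1. For H3K27me3 the intervals of FOXA2 (0.236, 0.136 to 0.373), EOMES (0.601, 0.422 to 0.857) and NEUROG1 (0.572, 0.388 to 0.857) lay below 1 as deposited. Under same-total scaling the H3K27me3 intervals of EOMES and NEUROG1 reached 1. NEUROG1, a neuroectoderm gene, also had an H3K4me3 interval below 1 as deposited (0.333, 0.132 to 0.742). So did the pluripotency genes PRDM14 (ratio 0.776) and LIN28A (ratio 0.752), though the LIN28A interval reached 1 under same-total scaling.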

How the data were processed

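H3K27me3 and H3K4me3 ChIP-seq (Millipore antibodies) was analysed in −Dox and +Dox JMJD3c-hESCs, 1 library per mark and condition. The deposited values are signal: the authors made NEBNext libraries, read them single-end on a MiSeq (CASAVA 1.4), aligned to hg19 using Bowtie2 (version not given in the sources used here), dropped mitochondrial reads, and computed ngs.plot coverage in the 3 kb to either side of 1 start per gene. Their methods further describe normalizing profiles by the density beyond transcript ends and do not say whether this holds for the deposited coverage. Input chromatin was not analysed here. Such values compare the distribution of reads, not the amount of a mark.

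In each file the values were whole multiples of a step, from which library sizes of 2629351 (H3K27me3 −Dox), 2682085 (H3K27me3 +Dox), 3509244 (H3K4me3 −Dox) and 2682085 reads (H3K4me3 +Dox) and approximate reads per promoter followed (3.34, 3.35, 3.41 and 3.37 steps per read). The step, and so the inferred size, was the same in both +Dox files. Ratios had no pseudocount. Ratio intervals were Clopper-Pearson, level intervals Poisson and median intervals from order statistics (Python 3.11.15, numpy 2.4.6, pandas 2.3.3, scipy 1.17.1, matplotlib 3.10.9). They hold counting error or, for medians, variation between promoters, and nothing else, because PCR copies of a molecule cannot be told from separate molecules. The estimate of reads and the intervals were tried only on simulated Poisson counts with a fixed mix of steps per read. Those counts held no PCR copies or other extra variation, so they cannot show whether the intervals hold for these libraries. Transcripts were matched to GENCODE 44 on GRCh37 (18244 of 20242, 90.1%).

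The values of 1 HOX promoter and some promoter sequences are not reported here, though the counts and medians include that promoter. The remaining HOX promoters are all named, with intervals for ratios off 1 and for the highest and lowest ratio of each cluster. Other genes come from lists of HOX cofactors, caudal and retinoic acid genes, Polycomb and MLL genes, cluster-flanking genes, DLX and IRX families and cell type markers. Members and lists were chosen with earlier results of these data known. The comparisons with promoters of mean H3K27me3 of at least 100 and 150, the pools over non-overlapping windows and the values without HOXB1, HOXB2 and HOXB13 were added after the data were seen. Alternatives were other scalings, pseudocounts, thresholds, interval levels and subsets of members.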

Additional observations from a re-analysis of the deposited data

How the results depend on the processing

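No paired analysis was possible because a single library stands for each mark and condition, and leaving a library out would have emptied its group. Of 370 summary values under an alternative, 335 stayed within 1.5 times the count or within the interval, and none whose interval left 0 or 1 changed direction. The HOXD H3K27me3 median, whose interval held 0, changed sign under same-total scaling (0.15), as did that of paralogues 9 to 13 with non-overlapping windows (−0.00) and the HOXB H3K4me3 median with a mean of at least 20 (0.02). Same-total scaling moved the H3K27me3 median log2 ratio to 0.41 (paralogues 4 to 8, 0.56), the +Dox medians of HOXA and HOXB to 304 and 266, the ratios below 0.66 to 1 and the intervals below 1 to 0. That last count of 2 was 1 under low-promoter scaling, with non-overlapping windows, with starts within 1000 bp of the canonical one, or without HOXB1, HOXB2 and HOXB13, and 0 with the reads halved or at 99%. The 14 H3K27me3 intervals above 1 became 9 with the reads halved, and the 5 H3K4me3 intervals below 1 became 0 with the reads halved, 2 at 99% and 3 with canonical starts. H3K27me3 ratios below 0.66 numbered 1 with a pseudocount of 1 or 5 or a mean of at least 20, and 0 at a fold of 0.5 or without HOXB1, HOXB2 and HOXB13. For H3K4me3 the 18 became 8 with a pseudocount of 5, 3 with a mean of at least 20 and 7 at a fold of 0.5, and the HOXD median became −0.86 with that mean. A class threshold of 10 gave 26 and 15 H3K4me3-marked HOX promoters (−Dox and +Dox) and 26 bivalent ones, 14 of them still in +Dox, and a threshold of 30 gave 5, 2, 5 and 1. With canonical starts, 25 of 26 promoters were above 20 in H3K27me3 in each condition. Where a subset, a higher threshold or fewer reads did not itself lower the count, the cause was not tested. At this depth few single H3K4me3 ratios were resolved. Of 468 values for single genes, 33 changed whether the interval left 1, and 12 H3K27me3 values changed side of 1, each from below 1 with an interval that held 1. These were HOXA10, HOXB6, HOXC11, HOXC13, HOXD3, HOXD8, HOXD10, HOXD12 and HOXD13 under same-total scaling, and HOXC11, HOXC13 and HOXD12 under low-promoter scaling also.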

Other observations

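Other homeobox families were read in the same way. All 6 DLX promoters, genes of craniofacial and forebrain development, were bivalent in −Dox, with H3K27me3 between 93.6 and 200. DLX1 went from 170 to 224 in H3K27me3 (1.32, 1.045 to 1.66) and from 68.7 to 28.0 in H3K4me3 (0.407, 0.236 to 0.654), and DLX2 from 155 to 205 (1.32, 1.04 to 1.69) and from 22.5 to 11.9 (0.530, 0.206 to 1.13). The other DLX promoters had H3K27me3 intervals that contained 1. Of the 6 IRX promoters, 4 were above 20 in H3K27me3 in −Dox, and IRX1 had an interval below 1, at 37.7 and 16.4 (0.436, 0.204 to 0.843). IRX3 and IRX5 had H3K27me3 of 142 and 161 and of 102 and 113, with H3K4me3 between 73.8 and 79.0 in both conditions.

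Among 10 genes of the Polycomb and MLL complexes, BMI1 and EZH1 were above 20 in H3K27me3 in −Dox. BMI1, a subunit of the complex that ubiquitinates histone H2A, went from 86.7 to 55.9 (0.645, 0.437 to 0.963) and EZH1, an H3K27 methyltransferase, from 32.7 to 7.83 (0.239, 0.0765 to 0.564). The interval of BMI1 reached 1 under same-total scaling. The promoters of EZH2, EED and SUZ12, the core of the complex that places H3K27me3, were below 20 in H3K27me3 and above 20 in H3K4me3 in both conditions, and EED went from 67.0 to 107 in H3K4me3 (1.60, 1.15 to 2.22).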
